A study of Mus musculus with 6 samples.

Results

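RNA of whole adrenal glands was compared between Armc5 knockout (KO) and wild-type (WT) mice for 33 genes of the vascular endothelium, the cells that line blood vessels. The members were taken by name from the deposited table of 59699 loci, in which every one of the 33 had a locus, and all 33 passed the filter on low counts that left 21358 named loci for testing. Of the 33, 30 stood at a locus of their own. The other 3 were merged with a neighbouring gene in the deposited table, as Egfl7/Dipk1b, Icam2/Ern1 and Ramp2/Vps25, and their reads cannot be assigned to the endothelial gene. The KO group held 3 libraries of female Armc5(-/-) mice and the WT group 3 libraries of female WT mice. All 6 came from mice aged 30 weeks on a 129 sv X CD1 background. The labels name no treatment, do not state which part of Armc5 was deleted, and do not say whether each library is a separate animal, so the p-values below cover the spread among 6 libraries, which may be technical. The protein ARMC5 links substrates to a cullin-based ubiquitin ligase, and inherited mutations of the human gene enlarge both adrenals.

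The adrenal gland is among the most densely vascularised organs, and its capillaries are fenestrated: their endothelial cells carry pores closed by thin diaphragms, through which hormones enter the blood. VEGF-A, made by the hormone-producing cells, acts on the receptor VEGFR2 of the endothelium and is known to maintain fenestrated capillaries in endocrine glands. The angiopoietin and Tie system stabilises vessels, and transcription factors of the ETS and SOX families set endothelial identity. The members were therefore read as fenestrated capillary genes (Plvap, Ehd3, Emcn and Kdr), as 28 general endothelial genes, and as the ligand gene Vegfa. Kdr and Emcn are also expressed in other capillaries and Emcn in veins, so that the first group is one of emphasis, and Ehd3 is known as a marker of the fenestrated glomerular capillary of the kidney.

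Total counts per library lay between 70547288 and 130573434, and the members' counts between 54 and 46463. Armc5 had 3.58, 3.53 and 3.66 CPM (counts relative to the TMM-scaled library size) in KO, against 27.3, 25.3 and 27.8 CPM in WT (log2 fold change -2.90, SE 0.10, edgeR adjusted p = 0.00041). KO replicate 3 held 295610 counts of the liver gene Alb, against at most 1289 in every other library. Genes of the adrenal cortex (summed CPM 30800 to 36100 in KO and 40600 to 68500 in WT over 7 loci) and of chromaffin cells (3810 to 4210 in KO and 1840 to 2640 in WT over 7 loci) were abundant in all 6 libraries, as the tissue label says. In bulk RNA, fewer endothelial cells and less RNA per endothelial cell cannot be told apart.

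Upstream sequence was available for some members, and 5 windows are shown because the levels of their genes did not overlap between the groups. Promoter windows of RefSeq (build GRCm38.p6) matched 17 of the 33 members by symbol. The 250 bases before the start were searched for CAGGAA, a core that ETS factors such as ERG and FLI1 are known to bind, and for its reverse complement TTCCTG. The motif was present in 11 of the members' 23 windows (47.8%), against 8446 of all 32851 windows of the same length (25.7%), and some members have several windows. For 11 members the RefSeq start that follows the nearest window lay within 50 bases of the deposited start, and 6 of these windows held the motif. Of these 11 members, 5 had TMM-scaled KO levels below all WT levels, an order that 14.2% of all tested loci showed. The motif was found in 3 of the 5 windows, those of Emcn (chr3:137340828-137341077, plus strand), Tek (chr4:94739039-94739288, plus strand) and Cd34 (chr1:194938571-194938820, plus strand). The windows of Cldn5 (chr16:18776597-18776846, plus strand) and Erg (chr16:95586594-95586843, minus strand) held none. Of the same 11 members, those whose groups overlapped were also mixed: the windows of Apln, Clec14a and Vegfa held the motif, and those of Eng, Kdr and Tal1 did not. Sequences run 5′ to 3′ on the strand of the gene, and capitals mark the motif.
Emcn: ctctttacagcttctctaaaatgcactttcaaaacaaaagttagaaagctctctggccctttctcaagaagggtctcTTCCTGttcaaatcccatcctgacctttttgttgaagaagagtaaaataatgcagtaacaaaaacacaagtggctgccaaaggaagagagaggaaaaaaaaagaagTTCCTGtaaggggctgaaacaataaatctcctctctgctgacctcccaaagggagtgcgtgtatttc
Tek: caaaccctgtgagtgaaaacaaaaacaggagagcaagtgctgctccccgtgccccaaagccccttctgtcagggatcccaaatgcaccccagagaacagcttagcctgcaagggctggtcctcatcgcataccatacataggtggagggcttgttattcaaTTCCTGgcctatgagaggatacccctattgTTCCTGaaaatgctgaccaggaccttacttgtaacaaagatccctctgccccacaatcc
Cd34: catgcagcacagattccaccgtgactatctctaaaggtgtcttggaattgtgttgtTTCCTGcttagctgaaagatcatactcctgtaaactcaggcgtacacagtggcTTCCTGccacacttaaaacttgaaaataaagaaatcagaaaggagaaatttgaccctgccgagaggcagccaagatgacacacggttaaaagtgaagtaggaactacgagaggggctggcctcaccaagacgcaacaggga
Cldn5: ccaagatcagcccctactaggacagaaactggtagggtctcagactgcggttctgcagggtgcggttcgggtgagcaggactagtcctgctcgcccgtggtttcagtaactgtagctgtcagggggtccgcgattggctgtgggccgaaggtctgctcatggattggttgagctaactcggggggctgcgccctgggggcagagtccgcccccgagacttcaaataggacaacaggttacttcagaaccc
Erg: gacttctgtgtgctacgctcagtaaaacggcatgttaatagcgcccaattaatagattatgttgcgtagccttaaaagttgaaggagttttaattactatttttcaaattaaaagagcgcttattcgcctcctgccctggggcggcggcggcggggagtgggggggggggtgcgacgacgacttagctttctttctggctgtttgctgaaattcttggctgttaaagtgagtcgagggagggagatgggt
A match describes the letters in the window and is not a measured binding site.

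Most endothelial genes had lower mean levels in KO glands, by modest amounts, and none passed the test. Of the 33 members, 29 had a negative log2 fold change and 4 a positive one, with a median of -0.36. The median over all tested loci was -0.00629 and 50.7% of them were negative. None of the 33 members was called higher or lower (edgeR quasi-likelihood test, Benjamini-Hochberg adjusted p under 0.05 over all 21358 loci), where 1.84% of all loci were called, 1.41% as higher and 0.431% as lower. The smallest adjusted p among the members was 0.0709, for Cldn5. Before adjustment, 14 members had a p under 0.05, all with negative fold changes, where 9.73% of all loci had such a p with a negative and 12.5% with a positive fold change. Scaling changed these counts: under scaling by library totals 21 of the 33 were negative, with 3 lower and 2 higher at an unadjusted p under 0.05, and under scaling by Rn7sk 21 were negative, with 3 lower and 0 higher. DESeq2 called 12 members lower and none higher, where it called 4.88% of all loci lower and 7.49% higher.

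For 13 of the 33 genes all KO values were below all WT values, and in none was the order the other way. Of all tested loci, 14.2% had KO below WT and 16.3% KO above WT. Here and elsewhere, such orders of single genes are of TMM-scaled CPM, with TMM factors of 1.07 to 1.1 in KO and 0.862 to 1 in WT. Under scaling by library totals some of them are lost. Cdh5 had 7747 of 102806992 named counts in KO replicate 1, a larger share than 8138 of 117424455 in WT replicate 1. Among the 12235 loci within the members' range of mean levels, KO lay below WT in 20.6%, and 60.7% had negative fold changes with a median of -0.0762. The libraries of a group were not alike. KO replicate 2 was the lowest of the 6 libraries for 18 members, where it was lowest for 18.9% of all loci, and WT replicate 2 was the highest for 16 members, where it was highest for 16.1% of all loci. The median member stood at -0.27, -0.50 and -0.33 in KO replicates 1, 2 and 3, on the log2 scale from the WT mean, against -0.12, 0.11 and 0.08 in WT replicates 1, 2 and 3, so that WT replicate 1 was the lowest WT library.

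**Figure D1:**
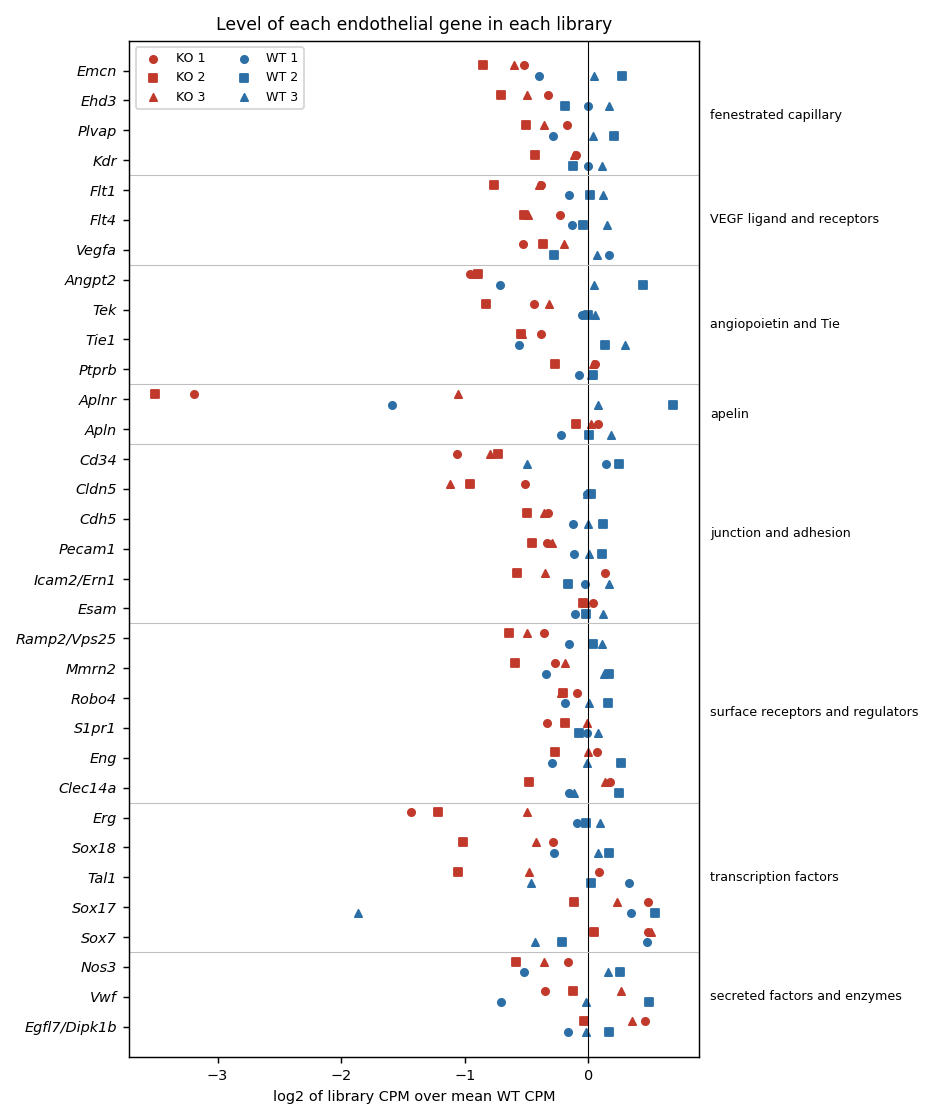
Level of each of the 33 members in each library, as log2 of the library's CPM over the mean WT CPM, by role; circles, squares and triangles are replicates 1, 2 and 3, red for KO and blue for WT. For 13 members all red points lie left of all blue ones, and Aplnr and Sox17 have the widest spread.

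The fenestrated capillary genes had fold changes within the range of those of the general endothelial genes. The 4 genes had a median log2 fold change of -0.42, all 4 being negative, and the 28 general genes a median of -0.36, with 24 negative. Summed over the 4 genes, the level was 479, 377 and 444 CPM in KO replicates 1 to 3, against 515, 576 and 607 CPM in WT. Summed over the 25 general genes at loci of their own, it lay between 791 and 958 CPM in KO and between 998 and 1190 CPM in WT. With TMM scaling neither of these pairs of sums overlapped. The TMM factors of KO replicate 1 (1.07) and WT replicate 1 (0.862) differ in proportion by more than the sums of these libraries. Under scaling by library totals both pairs would therefore overlap. Over all 28 general genes, the 3 merged loci included, the TMM-scaled sums overlapped, with 1100 to 1450 CPM in KO and 1430 to 1650 CPM in WT.

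Plvap encodes the protein of the diaphragms that close fenestrae. It had 132, 105 and 116 CPM in KO and 122, 172 and 153 CPM in WT. The groups overlapped, as WT replicate 1 lay below KO replicate 1, and the log2 fold change of -0.34 (SE 0.15) did not pass (edgeR adjusted p = 0.256). Plvap (chromosome 8, 71497765 to 71511752 of GRCm38) overlaps the oppositely transcribed loci of Gtpbp3 and Dda1, which had 11.1% and 16.7% of its mean count, and whether the authors' counting used strand is not given in the sources used here. Emcn, endomucin, a sialomucin of the capillary and venous surface, had 67.4, 53.6 and 63.9 CPM in KO and 73.2, 117 and 100 CPM in WT. Every KO library lay below every WT library, with a log2 fold change of -0.65 (edgeR adjusted p = 0.122, SE 0.19).

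Ehd3, a membrane-shaping ATPase of the endocytic pathway, stood at 121, 93.1 and 108 CPM in KO and at 152, 133 and 171 CPM in WT. Nor did these groups overlap, and the edgeR adjusted p was 0.118 for a log2 fold change of -0.50 (SE 0.14). DESeq2 called Emcn and Ehd3 lower (adjusted p = 0.0261 and 0.0319) but not Plvap (0.236) or Kdr (0.426). Kdr encodes VEGFR2, the main signalling receptor of VEGF-A. It had 158, 125 and 156 CPM in KO and 169, 155 and 182 CPM in WT. KO replicate 1 and KO replicate 3 reached the lowest WT library, and the log2 fold change was -0.20 (95% interval -0.50 to 0.09, edgeR adjusted p = 0.374).

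A ratio of 2 genes within a library does not depend on how libraries are scaled. Plvap had 1.88, 1.68 and 1.69 counts per count of Cdh5, the general endothelial cadherin, in KO, and 1.51, 1.80 and 1.75 in WT. The log2 ratio differed by 0.06 (SD 0.09 in KO and 0.13 in WT, n = 3 each), for which an exact two-sided permutation test over the 20 splits gave p = 0.60, the smallest p it allows being 0.10. Without WT replicate 1 the difference was -0.02. Pecam1 had ratios to Cdh5 of 0.993, 1.02 and 1.04 in KO and 1.01, 0.994 and 1.00 in WT. The ratio of Emcn was 0.960, 0.859 and 0.932 in KO and 0.911, 1.22 and 1.14 in WT, and its groups overlapped.

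Relative to Cdh5, mean ratios lay on both sides. Of the 32 other members, 18 had a higher and 14 a lower mean ratio in KO. This split follows from the choice of Cdh5, whose log2 fold change (-0.39) lay near the members' median (-0.36). Of all tested loci, 14% had a lower log2 fold change than Cdh5. In 6 members every KO ratio lay above every WT ratio, which 41.1% of all loci showed, Cdh5 itself having a lower mean in KO. These were Egfl7/Dipk1b, Esam, Eng, Robo4, Apln and Ptprb. In 2 members, Cldn5 and Erg, every KO ratio lay below every WT ratio, which 1.36% of all loci showed. Cldn5 had 0.122, 0.101 and 0.0816 counts per count of Cdh5 in KO and 0.15, 0.13 and 0.138 in WT. Erg had 0.0681, 0.0891 and 0.133 in KO and 0.151, 0.133 and 0.157 in WT, so that KO replicate 3 and WT replicate 2 had nearly the same value. These ratios were given no test, apart from that of Plvap.

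**Figure D2:**
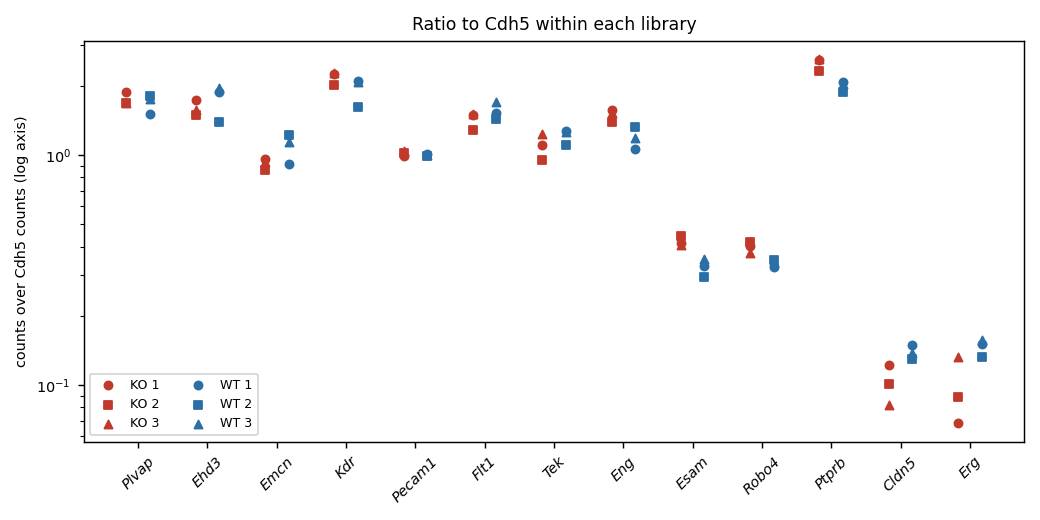
Counts of 13 members over the counts of Cdh5 in the same library, on a log axis, red for KO and blue for WT. The Plvap ratios overlap (1.68 to 1.88 in KO and 1.51 to 1.80 in WT), while Ptprb and Esam lie higher and Cldn5 lower in KO.

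The 3 VEGF receptors and Vegfa had lower means in KO, except that Kdr turned to 0.03 and 0.01 under scaling by library totals and by Rn7sk. Flt1 encodes VEGFR1, which binds VEGF-A as a decoy, and had 105, 80.8 and 104 CPM in KO and 123, 138 and 149 CPM in WT. Its groups did not overlap (log2 fold change -0.50, SE 0.13, edgeR adjusted p = 0.106, DESeq2 adjusted p = 0.0223). Flt4, VEGFR3, the receptor of VEGF-C and VEGF-D, had 57.8, 47.3 and 48.3 CPM in KO and 61.9, 65.8 and 75.3 CPM in WT, again with no overlap (log2 fold change -0.40, SE 0.12, edgeR adjusted p = 0.132). Flt4 marks lymphatic endothelium as well as fenestrated capillaries.

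Vegfa had 186, 208 and 235 CPM in KO and 302, 222 and 283 CPM in WT. WT replicate 2 lay below KO replicate 3, so that the groups overlapped, and the log2 fold change was -0.36 (SE 0.15, edgeR adjusted p = 0.225). Its ratio to Cdh5 was 2.65, 3.33 and 3.42 in KO and 3.76, 2.33 and 3.22 in WT, and the groups overlapped. Vegfa is expressed by steroid-producing cells. All 7 cortex loci (Hsd3b1 with neighbouring genes and Cyp11b1 with Cyp11b2 among them) were negative as well (median log2 fold change -0.58). None was called, and no cortex marker was at 0. The cortex sum was 36100, 30800 and 34200 CPM in KO replicates 1 to 3, in another order than Vegfa. The part of cortex content in the Vegfa value was not tested.

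The 4 angiopoietin and Tie genes among the members had lower means in KO, with a median log2 fold change of -0.50, although Ptprb turned to 0.17 and 0.16 under scaling by library totals and by Rn7sk. Tek encodes TIE2, the receptor of the angiopoietins, and had 78.2, 59.6 and 85.1 CPM in KO and 102, 106 and 110 CPM in WT. All WT libraries lay above all KO libraries (log2 fold change -0.51, SE 0.14, edgeR adjusted p = 0.112, DESeq2 adjusted p = 0.0296). Tie1, its co-receptor, had 40.3, 36.0 and 36.2 CPM in KO and 35.6, 57.6 and 64.3 CPM in WT. Here WT replicate 1 was the lowest library of all 6, and the log2 fold change was -0.49 (SE 0.22, edgeR adjusted p = 0.251).

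Angpt2, an antagonist of TIE2 that endothelial cells release, had 3.42, 3.57 and 3.52 CPM in KO and 4.05, 9.01 and 6.83 CPM in WT. The KO libraries lay within 3.50 ± 0.0788 CPM and the WT libraries at 6.63 ± 2.48 CPM (SD, n = 3 each), with a log2 fold change of -0.92 (edgeR adjusted p = 0.145, SE 0.29). Angpt2 overlaps the oppositely transcribed locus Mcph1, whose mean count was 256% of its own. Without WT replicate 1, Tie1 and Angpt2 were called lower (log2 fold change -0.70 and -1.18, edgeR adjusted p = 0.0450 and 0.0487, ranging over all alternatives from 0.0450 to 0.578 and from 0.0297 to 0.325), where 0.818% of loci were called lower and 0.923% higher. Without WT replicate 3 Tie1 stood at -0.32, and without WT replicate 2 Angpt2 stood at -0.62. Ptprb, the phosphatase VE-PTP that restrains TIE2 and VE-cadherin signalling, was at 169 ± 20.9 CPM in KO and 175 ± 7.74 CPM in WT (log2 fold change -0.05, 95% interval -0.33 to 0.22).

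The apelin receptor and its ligand had unlike values. Aplnr, the apelin receptor, had 0.879, 0.709 and 3.86 CPM in KO and 2.68, 12.9 and 8.49 CPM in WT, from 97, 54 and 500 counts in KO and 271, 1672 and 681 counts in WT. Its log2 fold change of -2.14 (SE 0.84) was the most negative of the members, but KO replicate 3 lay above WT replicate 1, and the gene did not pass (edgeR adjusted p = 0.206, DESeq2 adjusted p = 0.0307). When 1 library was left out, the log2 fold change ran from -3.34 (without KO replicate 3) to -1.59 (without WT replicate 2). Apln, the ligand, made by sprouting tip cells, was at 8.24 ± 0.533 CPM in KO and 8.24 ± 1.16 CPM in WT (log2 fold change 0.00, 95% interval -0.36 to 0.36).

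**Figure D3:**
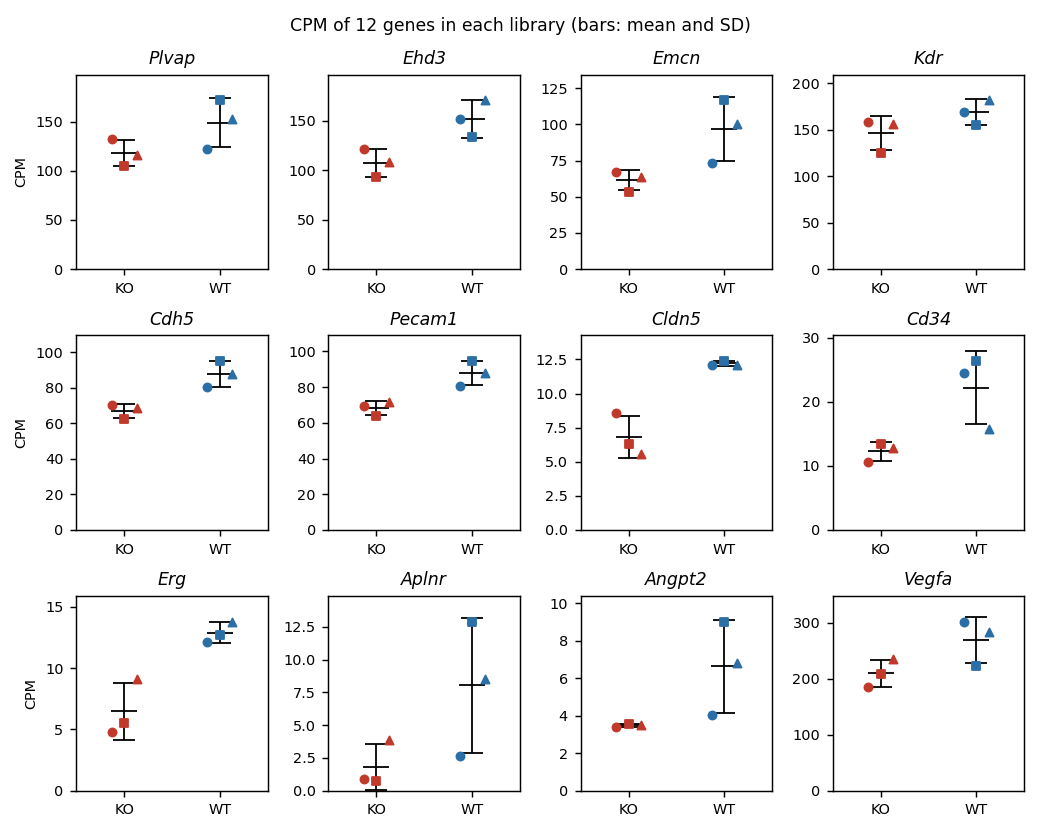
CPM of 12 members in each library, with the mean and SD of 3 libraries; circles, squares and triangles are replicates 1, 2 and 3. Cldn5 (5.60 to 8.57 CPM in KO and 12.1 to 12.4 CPM in WT) and Erg separate by genotype, whereas Plvap, Kdr, Aplnr and Vegfa overlap.

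All 6 junction and adhesion genes had negative log2 fold changes, although Esam turned to 0.22 and 0.19 under scaling by library totals and by Rn7sk. In 4 of the 6 genes KO lay below WT, where 14.2% of all tested loci showed this order. Cldn5, the tight-junction claudin of endothelium, had 8.57, 6.27 and 5.60 CPM in KO and 12.1, 12.4 and 12.1 CPM in WT. The WT libraries were close to each other, at 12.2 ± 0.175 CPM against 6.81 ± 1.56 CPM in KO (SD, n = 3 each), and every KO library was lower (log2 fold change -0.84, SE 0.18, edgeR adjusted p = 0.0709, DESeq2 adjusted p = 0.00113). The oppositely transcribed Cdc45, which overlaps Cldn5, had 58.5% of its mean count. Cdh5, VE-cadherin of the adherens junctions, had 70.2, 62.4 and 68.6 CPM in KO and 80.4, 95.3 and 87.8 CPM in WT (log2 fold change -0.39, SE 0.10, edgeR adjusted p = 0.0944). Pecam1, the adhesion molecule CD31, had 69.7, 63.9 and 71.6 CPM in KO and 80.9, 94.8 and 88.2 CPM in WT (log2 fold change -0.36, SE 0.09, edgeR adjusted p = 0.101). For both genes the highest KO library lay below the lowest WT library.

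Cd34, a sialomucin also carried by stromal and blood progenitor cells, had 10.6, 13.4 and 12.8 CPM in KO and 24.5, 26.4 and 15.7 CPM in WT. The groups did not overlap, although WT replicate 3 was near the KO libraries (log2 fold change -0.85, SE 0.21, edgeR adjusted p = 0.0961, DESeq2 adjusted p = 0.00748). Esam, a junctional adhesion molecule, was at 28.3 ± 0.812 CPM in KO and 28.5 ± 2.27 CPM in WT, with an interval of -0.24 to 0.21 around a log2 fold change of -0.01. The merged locus Icam2/Ern1 had 326 ± 84.9 CPM in KO and 383 ± 44.9 CPM in WT, and since Ern1, a stress sensor of the endoplasmic reticulum, is part of it, the value says little of ICAM-2. Pecam1 and Icam2/Ern1 are neighbours 166 kb apart on chromosome 11, and Esam and Robo4 lie 113 kb apart on chromosome 9.

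Of the 6 surface receptors and regulators, 1 had KO below WT, a share near that of all tested loci (14.2%). The merged locus Ramp2/Vps25, which holds the adrenomedullin co-receptor RAMP2 and a subunit of the endosomal sorting machinery, had 23.2, 19.0 and 21.1 CPM in KO and 26.6, 30.4 and 32.1 CPM in WT (log2 fold change -0.49, SE 0.12, edgeR adjusted p = 0.0888). The oppositely transcribed Becn1 overlaps this locus, with a mean count of 120% of its own. Eng, endoglin, a co-receptor for BMP ligands, was at 101 ± 12.2 CPM in KO and 105 ± 20 CPM in WT (log2 fold change -0.06, 95% interval -0.46 to 0.33). Robo4 (-0.17), S1pr1 (-0.17), Mmrn2 (-0.34) and Clec14a (-0.03) had edgeR adjusted p from 0.301 to 0.945, and Mmrn2 overlaps the oppositely transcribed Bmpr1a locus, which had 228% of its mean count. These genes encode a guidance receptor, the sphingosine 1-phosphate receptor, and a matrix protein with its lectin receptor.

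The transcription factors split. Erg, the ETS factor that maintains endothelial identity, had 4.77, 5.55 and 9.14 CPM in KO and 12.1, 12.7 and 13.8 CPM in WT. No KO library reached a WT library (log2 fold change -0.99, SE 0.25, edgeR adjusted p = 0.10, DESeq2 adjusted p = 0.00608), and KO replicate 3 was the nearest. Sox18, a SOXF factor of vessels and lymphatics, had 22.4, 13.5 and 20.3 CPM in KO and 22.5, 30.6 and 28.8 CPM in WT. Its KO replicate 1 and WT replicate 1 were almost equal (log2 fold change -0.54, SE 0.22, edgeR adjusted p = 0.212), and the locus Uckl1/Zfp512b overlaps it on the same strand with 337% of its mean count.

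The other SOXF genes had positive log2 fold changes. Sox7 had 17.2, 12.7 and 17.5 CPM in KO and 17.1, 10.6 and 9.14 CPM in WT (log2 fold change 0.36, SE 0.26, edgeR adjusted p = 0.454). Sox17, a factor of arterial endothelium, had 5.44, 3.60 and 4.58 CPM in KO and 4.95, 5.68 and 1.07 CPM in WT. WT replicate 3 stood apart with 86 counts of Sox17, against 501 and 733 in the other WT libraries, and without it the log2 fold change of 0.22 (SE 0.57) was -0.23. Tal1, a factor of endothelial and erythroid cells, was at 2.84 ± 1.10 CPM in KO and 3.77 ± 1.01 CPM in WT (edgeR adjusted p = 0.523).

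Secreted factors and enzymes showed no separation between the groups. The merged locus Egfl7/Dipk1b, with the secreted endothelial factor EGFL7, had 48.3, 34.3 and 44.8 CPM in KO and 31.3, 39.4 and 34.7 CPM in WT (log2 fold change 0.27, SE 0.16, edgeR adjusted p = 0.354), and the oppositely transcribed Agpat2 overlaps it with 79.2% of its mean count. Vwf, von Willebrand factor, a marker of larger vessels and platelets, was at 6.21 ± 1.38 CPM in KO and 6.42 ± 2.53 CPM in WT, with an interval of -0.84 to 0.74 around -0.05. Nos3, endothelial nitric oxide synthase, was at 8.73 ± 1.28 CPM in KO and 11.2 ± 3 CPM in WT (log2 fold change -0.36, SE 0.23, edgeR adjusted p = 0.401).

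Per kilobase of the gene length given in the deposited table, Plvap had the highest level of the members at loci of their own, 57.2 ± 6.63 CPM per kb in KO and 72.4 ± 12.3 CPM per kb in WT (SD, n = 3 each). Vegfa followed with 24.6 in KO and 31.6 in WT, Eng with 23.1 in KO and 24.1 in WT, and Ehd3 with 16.4 in KO and 23.1 in WT. In WT the SD of Eng was 4.59 CPM per kb, more than its distance to Ehd3, while Plvap lay apart from all of these in both genotypes. The lowest levels were those of Vwf, 0.386 CPM per kb in KO and 0.40 in WT, and in KO of Aplnr (0.491). In WT, Tal1 (0.861) and Sox17 (0.817) stood below Aplnr (2.17).

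**Figure D4:**
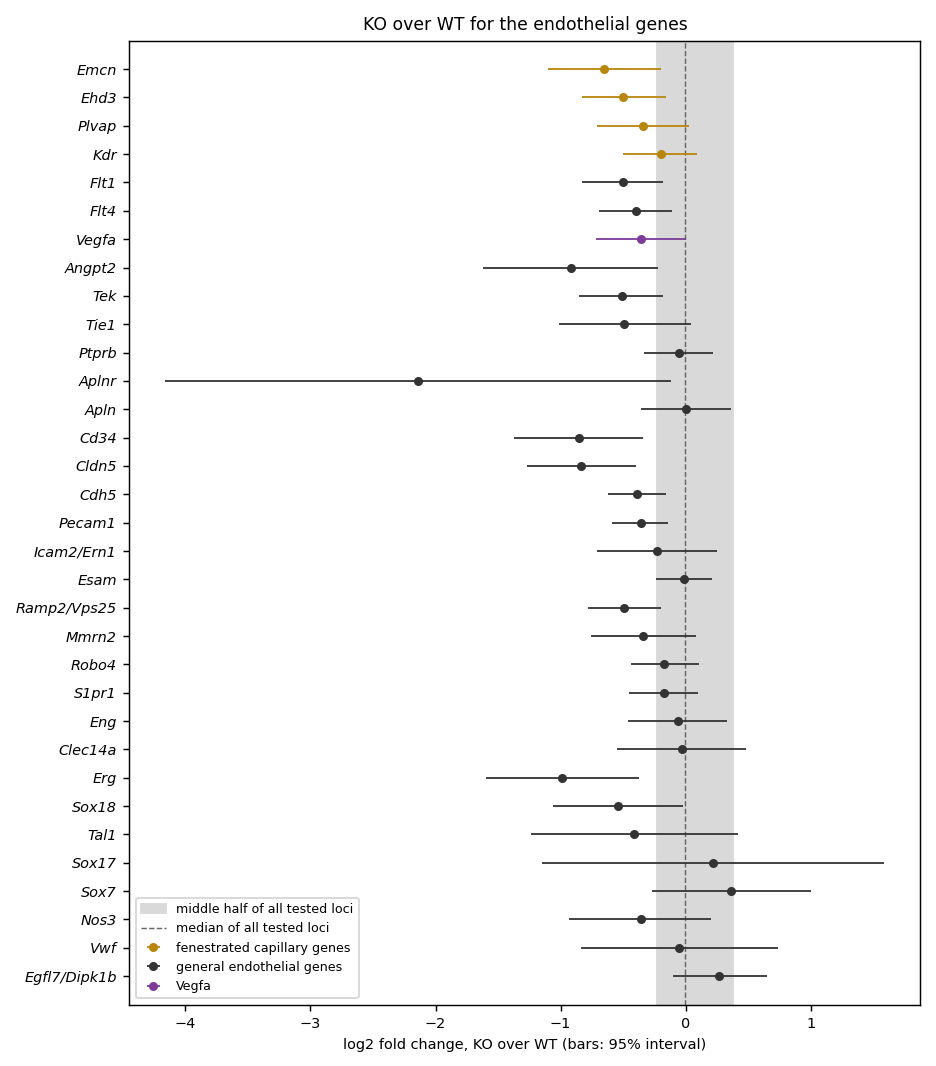
Log2 fold change of each member, KO over WT, with its 95% interval from the edgeR fit; the grey band holds the tested loci between their lower and upper quartiles and the dashed line is their median. The fenestrated capillary genes (-0.65 to -0.20) lie within the range of the general genes (-2.14 to 0.36).

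A second list of 30 endothelial genes that are no members had a median of -0.33 and 25 negative. It had 13 with KO below WT, where 14.2% of all tested loci had this order and 0.431% were called lower. It held 1 call, Bcl6b, a transcriptional repressor of endothelial cells, with 12.2 ± 1.27 CPM in KO and 21.6 ± 1.16 CPM in WT (log2 fold change -0.83, SE 0.12, edgeR adjusted p = 0.0339). The call was lost without any 1 of the 6 libraries (adjusted p from 0.0501, without WT replicate 2, to 0.129, without WT replicate 3), and under scaling by library totals (0.0604) or by Rn7sk (0.0722). Fli1, the ETS factor related to ERG (log2 fold change -0.64), the flow-responsive factor Klf2 (-0.67) and the adhesion receptor Adgrl4 (-0.45) came next, with edgeR adjusted p of 0.0578, 0.0836 and 0.0860.

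Vessel-type markers showed no shared direction. Of the 6 arterial markers 5 were positive (median 0.43 on the log2 scale), as were 5 of the 6 lymphatic markers (median 0.58), none called. The gap junction gene Gja5 of arteries was at 2.66 ± 0.548 CPM in KO and 0.718 ± 0.548 CPM in WT (log2 fold change 1.88, SE 0.78, edgeR adjusted p = 0.222). Lyve1, a hyaluronan receptor of lymphatic endothelium and some macrophages, was at 15.3 ± 4.23 CPM in KO and 4.78 ± 3.81 CPM in WT (log2 fold change 1.67, SE 0.57, edgeR adjusted p = 0.163). Prox1 of the same list was at 199 CPM in KO and 170 CPM in WT, far above the other lymphatic markers. Reln had 1279 counts in KO replicate 3, against 198 and 243 in KO replicates 1 and 2. Which cells these values come from was not tested. The medians of the venous and continuous capillary lists were -0.13 and -0.07, with no call in either. Among continuous capillary markers Rgcc had a log2 fold change of -0.75 (adjusted p = 0.0966) and Gpihbp1, the capillary anchor of lipoprotein lipase, 0.37 (adjusted p = 0.151).

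Partners of the members' pathways had no call. Of 11 VEGF, angiopoietin and apelin genes 6 were negative and 5 positive (median -0.12). KO lay below WT in 4 and above WT in 3, where 14.2% and 16.3% of all tested loci did so. Of 10 Notch genes 4 were negative and 6 positive, and of 10 genes of BMP signalling 8 were negative and 2 positive. In the first of these lists Vegfd, a VEGFR3 ligand, was at 43.1 ± 11.4 CPM in KO and 83.7 ± 19.9 CPM in WT (log2 fold change -0.96, edgeR adjusted p = 0.10). The merged locus Vegfb/Dnajc4 (-0.50) and the VEGF co-receptors Nrp2 (-0.45) and Nrp1 (-0.35) followed, with adjusted p from 0.0720 to 0.172. On the positive side stood the TIE2 ligand Angpt4 (1.07, edgeR adjusted p = 0.182, at 0.369 CPM in KO and 0.176 CPM in WT), Pgf (0.57), Vegfc (0.43) and Shc2 (0.41), with adjusted p up to 0.385. Apela, another apelin receptor ligand, had 0 counts in all 6 libraries. In the Notch list the target Hes1 had a log2 fold change of -0.54 (adjusted p = 0.0569), while the targets Hey1 (0.79) and Nrarp (1.16) and the ligand Jag1 (0.32) were positive, with adjusted p from 0.119 to 0.135. Id3, a target of BMP signalling, was at 11.9 ± 2.48 CPM in KO and 20.9 ± 0.969 CPM in WT (log2 fold change -0.82, edgeR adjusted p = 0.0633).

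**Figure D5:**
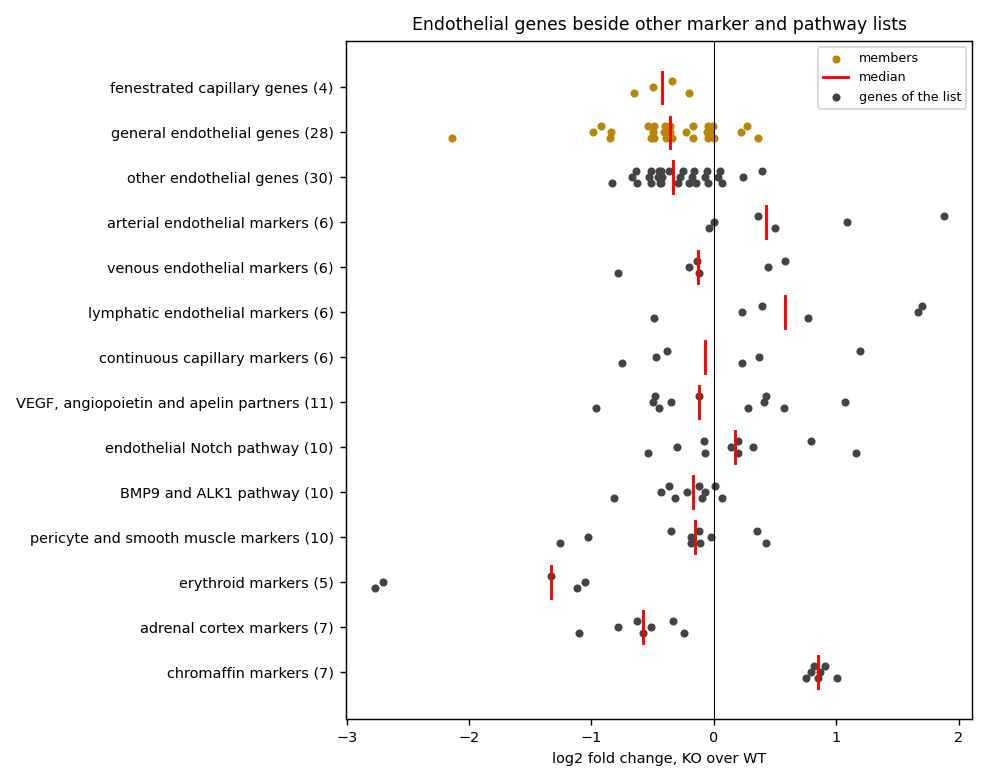
Log2 fold change, KO over WT, of the members and of the genes of 12 other lists, with the number of tested loci in parentheses and the median as a red bar. The general endothelial genes (median -0.36) and the other endothelial genes (-0.33) lie below 0, the chromaffin markers (0.85) above.

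Of the markers of other cells, erythroid ones were lower in KO, chromaffin ones were higher, and pericyte and smooth muscle sums overlapped. The part of these cells in the endothelial values was not tested. Erythroid markers summed to 274, 137 and 385 CPM in KO and 858, 518 and 523 CPM in WT, all 5 loci being negative (median -1.33 on the log2 scale) and none called or at 0 throughout a group. KO replicate 2 was lowest in this sum and in the level of the median member (-0.50 on the log2 scale from the WT mean). WT replicate 1 was highest in this sum, while its median member (-0.12) was the lowest of the WT libraries. Chromaffin markers had a median of 0.85 over 7 loci, with no overlap in any, where 16.3% of all tested loci had KO above WT. Chga and Dbh were called higher (edgeR adjusted p = 0.0440 and 0.0464), where 1.41% of all tested loci were called higher. Those 2 calls were lost when any library except WT replicate 2 was left out (adjusted p from 0.0551 to 0.173 for Chga and from 0.0626 to 0.185 for Dbh). Of 10 pericyte and smooth muscle markers, with summed levels of 220 to 308 CPM in KO and 226 to 338 CPM in WT, 8 were negative with a median of -0.15. Among them Tagln, an actin-binding protein of smooth muscle, fell to 9.54 ± 1.01 CPM in KO, against 19.5 ± 1.49 CPM in WT (log2 fold change -1.03, SE 0.12, edgeR adjusted p = 0.0205). That call was lost without KO replicate 1 (0.115), KO replicate 2 (0.112), KO replicate 3 (0.0627) or WT replicate 3 (0.105), and under scaling by library totals (0.0501) or by Rn7sk (0.0646).

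Markers of liver endothelium were looked at because of the liver RNA in KO replicate 3. Of 6 liver sinusoidal markers, Clec4g had 142 counts in that library, against 6 and 0 in the other KO libraries and 3, 3 and 0 in WT. The summed level of the 6 was 38.3 CPM in KO replicate 3, 24.5 and 24.2 CPM in the other KO libraries and 27.2 to 32.3 CPM in WT. Without KO replicate 3 the median of the 33 members was -0.37, and without it and WT replicate 1, which held the next highest Alb count, -0.46.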

How the data were processed

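RNA of adrenal glands from 3 KO and 3 WT samples was read in libraries that keep strand, after rRNA depletion, per the labels' protocols. The authors deposited raw counts per locus and, per the file headers, log2 CPM and log2 values scaled to Rn7sk, which entered no test here. The submitters' processing notes list GRCm38 and the tools edgeR, StringTie, Picard, STAR and Trimmomatic, with versions, counting program and strand setting not stated there. Gene lengths in base pairs come from the deposited table.

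Loci without a gene name (6596, with 1.39% to 2.04% of a library's counts) entered neither library sizes nor the main test. Counts were filtered with filterByExpr, scaled with TMM and compared by the robust quasi-likelihood test of edgeR 4.0.16 (two-sided, R 4.3.3), p-values being adjusted over 21358 loci by the Benjamini-Hochberg method with a threshold of 0.05. Each SE is the log2 fold change over the root of F. CPM use TMM-scaled sizes. Ratios to Cdh5 are of counts plus 0.5. The alternatives, DESeq2 1.42.0 among them, stand in the closing section. Replicates of a group differed by more than counting noise.

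The members, lists, motif and tests were chosen with earlier results of these data known. Named with full values were members with an unadjusted p under 0.05, the 3 largest and 3 smallest fold changes, and Plvap, Cdh5, Pecam1, Kdr and Vegfa. Of other lists, up to 4 genes with the smallest p were eligible. Outside this rule, Angpt4, Pgf, Vegfc, Shc2, Calcrl, Clec4g and Apela were named after values were seen. The choice of Cdh5 for the ratios of members other than Plvap was also made after values were seen.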

Additional observations from a re-analysis of the deposited data

How the results depend on the processing

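Under scaling by library totals and by Rn7sk, 674 and 711 loci were called, the median of all loci was 0.22 and 0.19, and the medians of the members were -0.14 and -0.16, of the fenestrated genes -0.19 and -0.22 and of the general genes -0.15 and -0.17. The members' median less that of all loci was -0.36 and -0.36, against -0.36 with TMM. Scaling shifts all loci by nearly the same amount, so this difference could hardly change and is no separate support. DESeq2 called 2626 loci in either direction, and 12 members as lower. Leaving out 1 library gave 15 to 644 calls, 0 to 2 members called lower, and member medians from -0.45 to -0.26. Without KO replicate 3 and WT replicate 1 together, added after seeing the data, 16 loci were called. The Plvap to Cdh5 difference ranged from -0.02 to 0.11 when 1 library was left out. No member was called higher in any of the 15 alternatives, and none lower in the 13 other than DESeq2 and the fit without WT replicate 1. Same-numbered libraries had correlations of -0.09, 0.01 and -0.14 between their deviations from the group means, and other pairs from -0.06 to 0.13. These values show no pairing by number. They cannot exclude one, as deviations from a mean of 3 libraries are tied to each other. With the replicate block 5 loci and no member were called, the members' median was -0.35 and the Plvap to Cdh5 difference 0.06. Log2 fold changes of uncalled members turned sign as follows. Under scaling by totals these were Kdr (0.03), Esam (0.22), Eng (0.15), Robo4 (0.05), Clec14a (0.18), Vwf (0.15), Ptprb (0.17), S1pr1 (0.06). Under scaling by Rn7sk these were Kdr (0.01), Esam (0.19), Eng (0.13), Robo4 (0.02), Clec14a (0.18), Vwf (0.14), Ptprb (0.16), S1pr1 (0.03). With at least 10 CPM in 3 libraries they were Esam (0.06), Eng (0.01), Clec14a (0.04), Ptprb (0.02). Without KO replicate 1 they were Vwf (0.08), Apln (-0.04), without KO replicate 2 Esam (0.00), Eng (0.03), Clec14a (0.15), Ptprb (0.05), without KO replicate 3 Apln (-0.01), without WT replicate 1 Apln (-0.10), without WT replicate 2 Eng (0.10), Clec14a (0.13), Vwf (0.30) and without WT replicate 3 Esam (0.05), Sox17 (-0.23). The others were Apln (0.00) with RLE size factors, Apln (-0.02) with unnamed loci included, Apln (-0.11) without KO replicate 3 and WT replicate 1, and Vwf (0.01) with the replicate block. When 1 library was left out, Esam ranged from -0.07 to 0.05, Sox17 from -0.23 to 0.60 and Vwf from -0.31 to 0.30. The cause of these changes was not tested. With 3 libraries a group, the widest intervals were those of Aplnr, Sox17, Tal1 and Vwf, whose means lay below about 10 CPM. Apln, at a mean of 8.24 CPM in KO and in WT, had a narrower one (-0.36 to 0.36).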

Other observations

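Genes of the response to low oxygen, which is known to raise Vegfa, Angpt2, Apln and Adm, had no shared direction. Of 12 tested loci, 7 were negative and 5 positive, the median being -0.08 on the log2 scale and none being called. Adm, adrenomedullin, a vasodilator peptide that acts through RAMP2, was at 21.9 ± 2.22 CPM in KO and 12 ± 4.38 CPM in WT, with every KO library above every WT library (log2 fold change 0.87, SE 0.26, edgeR adjusted p = 0.130). Its partner locus Ramp2/Vps25 had a log2 fold change of -0.49, and Calcrl, the receptor that RAMP2 joins, of -0.53 (edgeR adjusted p = 0.0994).

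Platelet markers, of which Vwf is shared with endothelium, were near the floor: summed levels were 11.7 to 13.7 CPM in KO and 7.90 to 12.6 CPM in WT, mostly from the merged locus Gp1bb/Sept5. Leukocyte markers summed to 78.3 to 91.9 CPM in KO and 73.9 to 293 CPM in WT, the highest value being that of WT replicate 2, in which Cd68 was at 169 CPM. Adipocyte markers summed to 68.6 to 98.7 CPM in KO and 107 to 122 CPM in WT, with 5 of 6 negative and none called.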
